A study of Mus musculus with 19 samples.

Results

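The major urinary protein genes examined here were Mup1, Mup2, Mup3, Mup7, Mup10, Mup11, Mup17, Mup20 and Mup21, taken by symbol as 9 of the 51826 gene entries quantified in mouse liver. The mice were female Balb/c animals aged 12 weeks in every group, and the labels name no transgene or drug for any group. Mice are named here by stage and animal number, as in NUL_4, and there were 7 nulliparous mice (NUL), 6 mice at lactation day 10 (LAC) and 6 mice at involution day 6 (ID6), that is, 6 days past weaning. Every sample was a different animal. RNA came from flash frozen liver, the caudate lobe according to the methods, and was enriched for poly(A) RNA and sequenced with paired-end reads. Charles River Laboratories and The Jackson Laboratory were both named as suppliers, and nothing in the sources used here tied a mouse to either. Each mouse carried an animal number between 1 and 240. Numbers under 200 belonged to 3 nulliparous and 3 lactating mice, while numbers of 200 and above belonged to 4 nulliparous, 3 lactating and all 6 involution mice, so that a difference between involution mice and mice of both ranges mixes stage with range, and the same difference is also given within the upper range. The ranges are not a batch that the labels name.

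Major urinary proteins are small lipocalins, barrel-shaped carriers that the mouse liver secretes into the blood and the kidney passes into the urine, where they hold and slowly release volatile pheromones. The genes form a dense cluster of near-identical copies and pseudogenes on chromosome 4, and liver is the main site of expression of most of them, with higher levels in males under pulsatile growth hormone. Outside the central block of near-identical genes lie more divergent members such as Mup20, which encodes darcin, a male pheromone that attracts females.

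On GRCm38 the cluster spanned chr4:59956804-62150863, or 2.19 Mb, with 48 family genes annotated, and 47 of these had an entry in the expression table. With Mup-ps22, which was not among the genes annotated on chromosome 4, the table held 48 family entries, 21 with a Mup number and 27 named as pseudogenes. The 9 genes are protein coding and lie on the minus strand. Mup7 (chr4:60066469-60070475), Mup2 (chr4:60135932-60154289), Mup1 (chr4:60498012-60501960), Mup10 (chr4:60578260-60582199) and Mup11 (chr4:60658466-60662411) sit in the proximal part of the cluster, and Mup17 (chr4:61591929-61595871) lies between them and the distal end. Mup20 (chr4:62050234-62054158), Mup3 (chr4:62083476-62087342) and Mup21 (chr4:62147932-62150863) are the last family genes of the cluster.

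The coding sequences of Mup1, Mup2, Mup10, Mup11 and Mup17 were 98.5% to 99.4% identical to each other over 10 pairs (median 99.0%), and Mup7 was 98.3% to 98.9% identical to those 5. Mup20 was 90.6% to 91.3% identical to them, Mup21 84.0% to 84.7% and Mup3 82.7% to 83.6%, whereas Mup3 and Mup21 were 94.7% identical to each other. Cut into windows of 150 bases, the annotated transcripts of Mup3 and Mup21 shared no window with another gene. For Mup20 68.9% of windows were unique and 1 other gene shared the rest. The unique share was 59.6% for Mup17, 47.5% for Mup1, 35.2% for Mup11, 32.9% for Mup7, 29.7% for Mup2 and 27.7% for Mup10, and 12 to 15 other genes shared windows with each of these. How reads were divided among these 6 genes is therefore uncertain, and the annotation is that of C57BL/6J while the mice were Balb/c. A level of Mup3 or Mup21 does not rest on such a division.

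RefSeq promoters on GRCm38.p6, from 250 bases before to 50 after each start, were found for 7 of the 9 genes, without Mup1 and Mup20. The 8 letters GACCCATA stood in all 7, against 0.240% of 32851 mouse promoters on the given strand and 0.438% on either strand. The letters TATATAA, around a TATA box, followed in 6 of the 7, all but Mup7, against 2.20% of promoters on the given strand and 3.24% on either. The stretch from the first to the second is shown for 3 genes of the near-identical set and for both distal genes with an entry, because expression differed between these sets. Capitals mark GACCCATA at the 5′ end and TATATAA at the 3′ end, and all 5 stretches read on the minus strand.
Mup2, chr4:60139877-60139962: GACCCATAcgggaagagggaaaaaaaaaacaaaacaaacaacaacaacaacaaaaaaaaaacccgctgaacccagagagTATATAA
Mup10, chr4:60582179-60582262: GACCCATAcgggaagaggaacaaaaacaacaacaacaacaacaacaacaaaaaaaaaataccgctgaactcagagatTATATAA
Mup17, chr4:61595851-61595933: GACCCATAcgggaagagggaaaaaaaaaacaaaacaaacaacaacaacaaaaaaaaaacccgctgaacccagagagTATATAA
Mup3, chr4:62087322-62087370: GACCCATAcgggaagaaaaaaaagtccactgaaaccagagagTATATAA
Mup21, chr4:62150843-62150888: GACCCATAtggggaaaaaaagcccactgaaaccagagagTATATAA
Between the capitals lay 71 bases in Mup2, 69 in Mup10 and 68 in Mup17, of which 60.6%, 58.0% and 60.3% were A. In Mup3 there were 34 bases, 17 of them A, and in Mup21 31 bases, 14 of them A. Mup11 had 68 bases between the same letters. Outside the 9 genes, Mup4 had 37 bases there and Mup6 35, and Mup4 was listed at 0 in all 19 mice and Mup6 reached at most 0.30 TPM. A link between this length and expression was not tested. The letters TTCNNNGAA, the form bound by STAT5, occurred in none of the 7 windows and in 8.30% of all promoters, which says only that these letters are not in these windows.

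Expression was measured as TPM, the share of a gene among all transcripts of a mouse scaled to a fixed total, which corrects for gene length and keeps no read depth, so that the precision of a value is known only from the spread between mice. The test was limma-trend on log2(TPM + 1), run on 16230 genes whose mean reached 0.1 TPM, all 9 genes included, and p-values were adjusted by Benjamini-Hochberg across that whole table. Genes are referred to as called where the adjusted p was below 0.05 and the log2 change was 1 or more in either direction, the study's thresholds. On this scale the change of genes at low TPM is understated. In whole liver, fewer cells of a type and less RNA per cell cannot be told apart. Hepatocyte markers were high in every mouse (7 genes, summed 95250 to 176100 TPM), and the 8 housekeeping genes examined were above 0 in every mouse. The hepatocyte sum was 95250 to 124900 TPM in NUL, 132200 to 176100 in LAC and 103800 to 135800 in ID6. In LAC it was 132200 to 139300 TPM in the lower range of animal number and 157200 to 176100 in the upper. Between the ranges 4 of the 7 markers were higher and 1 lower at an adjusted p under 0.05, against 25.6% of all genes. The part of these markers in the Mup results was not tested. Of 5 lacrimal and salivary gland markers, Pip, Prol1 and Bpifa2 were listed at 0 in all mice, Aqp5 reached 0.08 TPM, and Amy1, which liver also expresses, was at 118.7 to 196.0 TPM. Mammary markers (Csn2, Wap and Lalba) were listed at 0 in all 13 mice numbered 200 and above and summed to at most 13.26 TPM in 1 lactating mouse numbered under 200, and their part in the results was not tested.

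Mup3 was the most abundant of the 9 genes in every mouse. It held 87.97% to 91.69% of their summed TPM in the 6 mice numbered under 200 and 98.23% to 99.57% in the 13 mice numbered 200 and above. By mean TPM it ranked 68 among all genes in the first range and 24 in the second. In the upper range Mup20 followed at 25.12 to 73.33 TPM, and Mup21 and Mup7 stayed under 13 TPM in every mouse. The levels of Mup1, Mup2, Mup10, Mup11 and Mup17 depended on the range of animal number, as the plot of TPM per mouse shows.

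**Figure D1:**
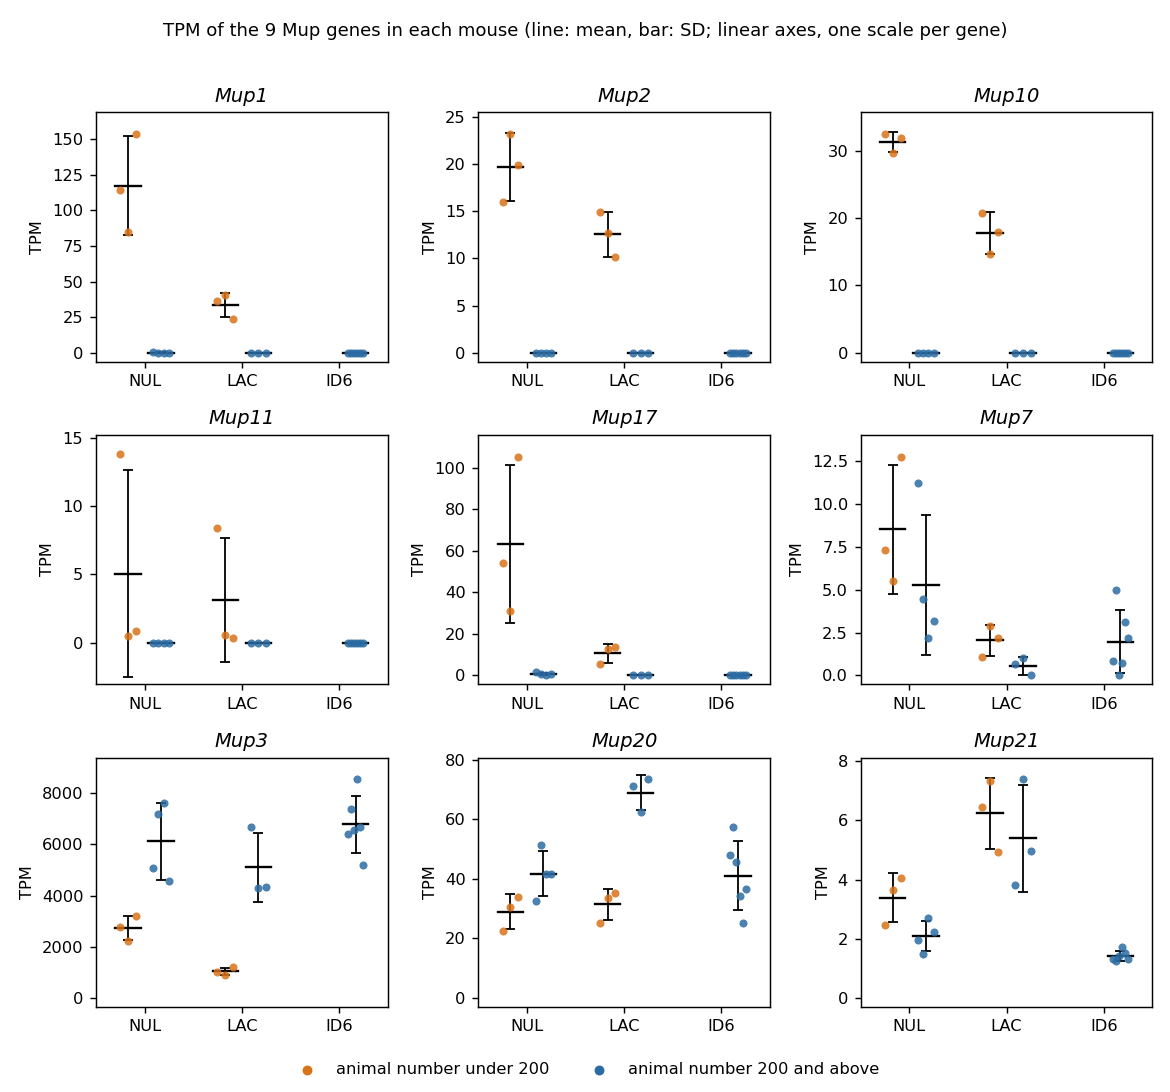
TPM (vertical axes, linear, with a scale for each gene) of the 9 Mup genes by stage (horizontal axes), with a point for each mouse, orange for animal numbers under 200 and blue for 200 and above, a black line at the mean and a bar for the SD. Mup1, Mup2, Mup10, Mup11 and Mup17 lie at or near 0 in all 13 mice numbered 200 and above, Mup3 is higher there than in all 6 lower-numbered mice, and Mup21 is highest at lactation in both ranges.

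The first comparison asked whether the levels differed between the ranges of animal number, within stage, over the 13 nulliparous and lactating mice in which both ranges occurred. Of the 9 genes, 5 were called lower (Mup1, Mup2, Mup10, Mup11 and Mup17) and 1 higher (Mup3) in mice numbered 200 and above. Over all genes, 1.94% were called in this comparison, 1.20% lower and 0.746% higher. At an adjusted p under 0.05 alone Mup20 was also higher, against 25.6% of all genes passing that threshold in either direction. For the 9 genes the median of the log2 change was -1.62, while it was 0.05 for all genes tested. Mup2, Mup10 and Mup11, listed at 0 throughout the upper range, and Mup1, at a mean of 0.045 TPM there, could pass the filter only through the lower-numbered mice. A lower call was thus the only call open to these genes. The 9 genes and the ranges were chosen with earlier results of these data known, so the count and the median are descriptions.

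Mup1, a secreted lipocalin also studied for effects on glucose and lipid metabolism, stood at 114.2, 84.56 and 153.2 TPM in NUL_1, NUL_4 and NUL_13 and at 36.30, 40.22 and 23.73 TPM in LAC_36, LAC_102 and LAC_133. In the 13 mice numbered 200 and above it was listed at 0 in 9, and the highest of the other 4 was 0.31 TPM. The ranges did not overlap at any stage, and the log2 difference (200 and above minus under 200) was -5.92 ± 0.28 (SE; limma adjusted p = 1.92e-08). Mup2 and Mup10, of the same near-identical set, were listed at 0 in all 13 mice of the upper range. Mup2 ranged from 10.12 to 23.12 TPM (median 15.41) and Mup10 from 14.66 to 32.41 TPM (median 25.21) in the 6 lower-numbered mice. Their log2 differences were -4.07 ± 0.13 (limma adjusted p = 5.6e-10) and -4.64 ± 0.13 (2.89e-10), values set in part by the pseudocount and no bound on a fold.

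Mup17 was at 53.94, 30.85 and 105.3 TPM in NUL_1, NUL_4 and NUL_13 and at 5.50, 12.70 and 13.78 TPM in LAC_36, LAC_102 and LAC_133. In the upper range it reached at most 1.42 TPM (median 0.25, 2 of 13 mice listed at 0), again with no overlap, and the log2 difference was -4.34 ± 0.37 (limma adjusted p = 4.27e-06). Mup11 was the least even of the set. It stood at 13.81 TPM in NUL_1 and at 8.37 TPM in LAC_36, at 0.37 to 0.88 TPM in the other lower-numbered mice, and was listed at 0 in all 13 mice of the upper range. Its call (log2 difference -1.62 ± 0.53, limma adjusted p = 0.0393) was lost when any of 9 of the 13 mice was left out, NUL_1 and LAC_36 among them (adjusted p = 0.0711 and 0.0738).

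Because reads can be moved among these genes, the summed TPM of Mup1, Mup2, Mup10, Mup11 and Mup17 was also taken. It ranged from 65.90 to 311.2 TPM in the lower-numbered mice and from 0 to 1.73 TPM in the others. These 5 genes together were thus low in the upper range, to whichever of the 5 the reads were given. Mup7, near-identical to them, is not in this sum and reached 11.24 TPM in the upper range. Of the near-identical genes outside the 9, Mup14, Mup9 and Mup19 were also at or near 0 in the upper range and above it in the lower. Mup14 stood at 321.2 to 1451 TPM (median 693.6) in the 6 lower-numbered mice, where it ranked 137 among all genes, and was listed at 0 in 12 of the other 13, with 0.09 TPM in the remaining mouse. Mup9 was at 41.38 to 342.3 TPM against at most 0.31 TPM, and Mup19 at 7.88 to 74.20 TPM against 0 in all 13 mice. Mup12, Mup13 and Mup16 stayed at or under 0.64 TPM in the lower range, and Mup15 and Mup18 were listed at 0 there.

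Of the 39 other family genes 6 had a mean of at least 0.1 TPM, and all 6 (Mup8, Mup9, Mup14, Mup19, Mup-ps4 and Mup-ps12) were lower in the upper range at an adjusted p under 0.05, with Mup9, Mup14 and Mup19 called. Each of these could pass the filter only through the lower-numbered mice, so no other result was open to them and the counts are descriptions. Over all genes 25.6% passed in either direction and 1.20% were called lower. Among the 27 pseudogenes, 21 were listed at 0 in all 19 mice.

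**Figure D2:**
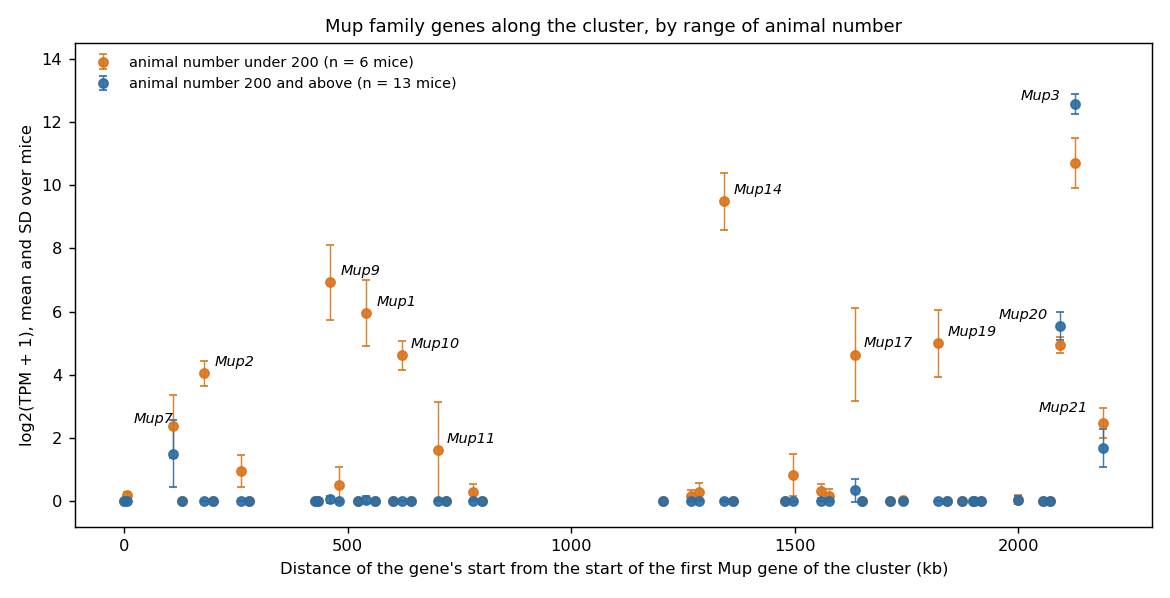
Mean log2(TPM + 1) with its SD over mice (vertical axis) of the 47 genes of the Mup family with a position on chromosome 4 and an entry, against the distance of each gene from the first Mup gene of the cluster in kb (horizontal axis), in orange for the 6 mice numbered under 200 and in blue for the 13 mice numbered 200 and above, with stages pooled. In the upper range only Mup3, Mup20, Mup21 and Mup7 stand clearly above 0, while genes along the whole cluster do so in the lower range.

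Mup3 went the other way. It was at 2752, 2238 and 3209 TPM in NUL_1, NUL_4 and NUL_13, against 5073, 7191, 7606 and 4566 TPM in NUL_220, NUL_221, NUL_226 and NUL_227. In LAC_36, LAC_102 and LAC_133 it was at 1003, 911 and 1194 TPM, against 6666, 4291 and 4344 TPM in LAC_200, LAC_213 and LAC_240. No mouse of the upper range was as low as any mouse of the lower range in either stage. The mean was 2.24-fold higher in the upper range among nulliparous mice and 4.92-fold higher among lactating mice, and the log2 difference over both stages was 1.67 ± 0.22 (limma adjusted p = 0.000166).

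Mup20 was higher in the upper range by 0.80 ± 0.14 on the log2 scale (limma adjusted p = 0.00163), short of the threshold on the fold. Within stage, the difference was 1.12 ± 0.24 in lactating mice (adjusted p = 0.00445), where the ranges did not overlap, and 0.52 ± 0.22 in nulliparous mice (adjusted p = 0.105), where they did. Mup7 (log2 difference -0.84 ± 0.30, adjusted p = 0.0596) and Mup21 (-0.36 ± 0.15, adjusted p = 0.0993) did not pass the test by limma. Mup7 passed with a filter at 1 TPM (0.0433), with median-ratio scaling (0.0464) and, as a call, without NUL_220 (-1.04, adjusted p = 0.0086), and Mup21 passed without LAC_213 (0.0245).

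Summed over the 9 genes, nulliparous mice of the lower range held 3010 ± 562 TPM (SD, n = 3) and those of the upper range 6159 ± 1515 TPM (n = 4), while lactating mice held 1153 ± 136 TPM (n = 3) and 5175 ± 1357 TPM (n = 3). The sum without Mup3 had the opposite order, at 278 ± 77.8 against 49.9 ± 5.34 TPM in nulliparous mice and 117 ± 8.25 against 75.0 ± 3.79 TPM in lactating mice. Over the whole family, Mup14 included, nulliparous mice came to 4552 ± 696 TPM in the lower range and 6159 ± 1515 TPM in the upper range, with overlapping values. Lactating mice came to 1687 ± 178 and 5175 ± 1357 TPM, and these did not overlap. Mup3 made up 51.78% to 68.77% of the family sum in the lower range and 98.23% to 99.57% in the upper.

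**Figure D3:**
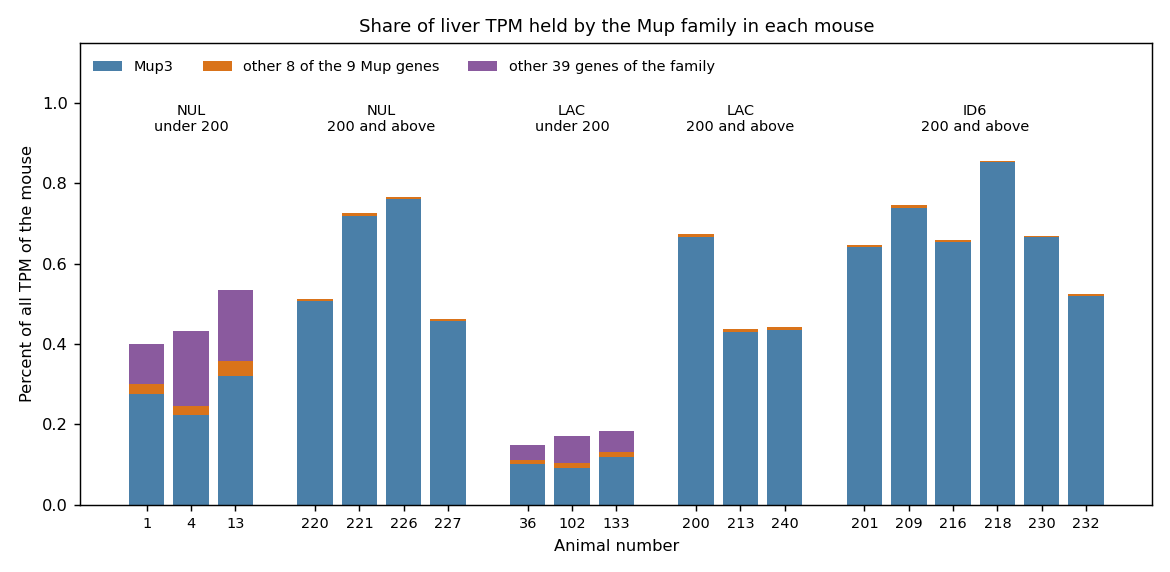
Percent of all TPM of each mouse (vertical axis) held by Mup3 (blue), by the other 8 of the 9 Mup genes (orange) and by the other 39 genes of the family (purple), with a bar for each mouse labelled by animal number and grouped by stage and range. The whole bar runs from 0.149% in a lactating mouse numbered under 200 to 0.857% in an involution mouse, and the purple and orange parts are visible mainly in the lower range.

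Candidate regulators were listed as the growth hormone, prolactin, glucocorticoid and thyroid hormone inputs and the liver transcription factors known to act on these genes, 22 in all. Between the ranges 1 was lower, Zhx2, and 4 were higher at an adjusted p under 0.05 (Jak2, Thra, Hnf4a and Cebpa, each by 0.36 or less on the log2 scale), 5 of 22 where 25.6% of all genes passed, and the median log2 change of the 22 was 0.10, where that of all genes was 0.05. Zhx2 is a zinc finger and homeobox factor known as a regulator of Afp, H19, Gpc3 and Mup genes in mouse liver, and BALB/cJ mice are known to carry a defective allele. It was at 2.36 to 3.73 TPM (median 2.96) in the 6 lower-numbered mice and at 0.06 to 0.27 TPM (median 0.11) in the other 13, a 26.0-fold lower mean (log2 difference -1.85 ± 0.07, limma adjusted p = 2.6e-09). H19 was higher in the upper range by 5.14 ± 0.68 on the log2 scale (adjusted p = 0.000189) and Gpc3 by 2.25 ± 0.40 (adjusted p = 0.0013), whereas Afp differed by 0.25 ± 0.15 (adjusted p = 0.248). The ranges differed in many genes at once, and the part of Zhx2 or of any other gene in the Mup levels was not tested.

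Other liver genes with sex-biased expression did not share 1 direction. Again 25.6% of all genes passed in this comparison. Of 14 male-biased genes tested, 4 were higher in the upper range (Cspg5, Cyp2u1, Hsd3b5 and Selenbp2) and 6 lower (Cyp4a12a, Elovl3, Serpina1e, Slco1a1, Susd4 and Ugt2b1). Slco1a1, an organic anion transporter, fell by 4.18 ± 0.36 on the log2 scale (limma adjusted p = 5.31e-06), and Hsd3b5, a steroid-metabolizing enzyme, was higher by 4.97 ± 0.35 (adjusted p = 8.55e-07). Of 16 female-biased genes 2 were higher (A1bg and Prom1) and 6 lower, among them Sult3a1 (-3.77 ± 0.62, adjusted p = 0.000893). Among 9 other liver lipocalins tested, Ambp was higher by 0.26 ± 0.07 (adjusted p = 0.0113), and Apom, C8g, Orm3, Ptgds and Rbp4 were lower, Rbp4, the plasma retinol carrier, by 0.23 ± 0.07 (adjusted p = 0.0248).

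Of 22 genes outside the family within 1 Mb of the cluster that averaged 1 TPM or more, 3 were higher and 5 lower in the upper range at an adjusted p under 0.05, and 3 of these were called lower, beside shares of 25.6% and 1.20% over all genes. Gm13775, annotated as a processed transcript on the plus strand (chr4:61783123-61801286) that begins 854 bases from the annotated 5′ end of Mup19, was at 2.77 to 15.47 TPM in the lower-numbered mice and listed at 0 in the other 13. It could reach an average of 1 TPM only through the lower-numbered mice, so a lower call was the only call open to it. Gm12909, an antisense entry (chr4:62088288-62090524) that begins 946 bases from the 5′ end of Mup3, was lower by 1.14 ± 0.18 on the log2 scale (limma adjusted p = 0.000617) where Mup3 was higher. Rgs3, a regulator of G protein signaling outside the cluster, differed by -1.73 ± 0.31 (adjusted p = 0.00148). Whether the counting used strand was not given in the sources used here, so that reads from overlapping genes on opposite strands may be mixed.

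The second comparison concerned lactation. With the ranges pooled, 1 of the 9 genes was called in LAC against NUL, Mup7, which fell, and Mup21 rose at an adjusted p under 0.05 alone. Over all genes 0.746% were called and 9.21% passed the adjusted p alone. The 9 genes had a median change of -0.04 on the log2 scale, where all genes had -0.03. For Mup1, Mup2, Mup10, Mup11 and Mup17 the pooled estimate mixed mice at and far above 0, with SE between 0.57 and 1.37, so the ranges are also given apart.

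Mup7 was at 7.32, 5.50 and 12.76 TPM in NUL_1, NUL_4 and NUL_13 and at 1.07, 2.89 and 2.18 TPM in LAC_36, LAC_102 and LAC_133. In the upper range it was at 11.24, 4.48, 2.21 and 3.19 TPM in NUL_220, NUL_221, NUL_226 and NUL_227 and at 0.66, 1.04 and 0 TPM in LAC_200, LAC_213 and LAC_240. Within each range every lactating mouse lay below every nulliparous mouse. The pooled log2 change was -1.69 ± 0.42 (limma adjusted p = 0.0145), with -1.62 ± 0.56 in the lower range (adjusted p = 0.0796) and -1.87 ± 0.53 in the upper (adjusted p = 0.0373). At 32.9% unique windows, the level of Mup7 also depends on the division of reads.

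Mup21 rose in both ranges. It went from 2.47, 3.63 and 4.06 TPM in NUL_1, NUL_4 and NUL_13 to 6.44, 7.33 and 4.94 TPM in LAC_36, LAC_102 and LAC_133, and from 1.96, 1.49, 2.70 and 2.22 TPM in NUL_220, NUL_221, NUL_226 and NUL_227 to 3.83, 7.38 and 4.97 TPM in LAC_200, LAC_213 and LAC_240. Lactating and nulliparous mice did not overlap within either range. The log2 change was 0.91 ± 0.15 with ranges pooled (limma adjusted p = 0.00103), 0.73 ± 0.19 in the lower range (adjusted p = 0.0242) and 1.02 ± 0.18 in the upper (adjusted p = 0.00208). Mup7 and Mup21 were the genes of the 9 called within the upper range, where 1.09% of all genes were. With only mice numbered 200 and above in the fit, Mup7 was not called (log2 change -1.87 ± 0.57, limma adjusted p = 0.071).

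Within the lower range, where the near-identical set could be measured, 5 of the 9 genes fell at lactation at an adjusted p under 0.05, against 5.27% of all genes, and 3 of them were called lower (Mup1, Mup3 and Mup17), against 0.474% of all genes. Mup1 fell by 1.77 ± 0.19 on the log2 scale (limma adjusted p = 2.76e-05) to 0.285 of its nulliparous mean. Mup17 fell by 2.38 ± 0.36 (adjusted p = 0.000628), Mup10 by 0.79 ± 0.10 (adjusted p = 0.000104) and Mup2 by 0.61 ± 0.12 (adjusted p = 0.0045), and Mup11 differed by -0.33 ± 0.67 (adjusted p = 0.812). Mup14, outside the 9, fell by 1.48 ± 0.18 (adjusted p = 8.82e-05). The whole-family sum in lactating mice was 0.370 of that in nulliparous mice.

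Mup3 fell by 1.39 ± 0.22 in the lower range (limma adjusted p = 0.000984), to 0.379 of the nulliparous mean without overlap. In the upper range lactating and nulliparous mice overlapped and the log2 difference was -0.26 ± 0.20 (adjusted p = 0.529). Whether the lactation response differed between the ranges was tested as an interaction over the 13 mice. None of the 9 genes passed by limma, against 0.111% of all genes at an adjusted p under 0.05, and 2 of the 9 (Mup1 and Mup10) were at 0.0718 and 0.0901. The difference for Mup3 was 1.13 ± 0.32 (adjusted p = 0.192), so the smaller fall in the upper range is not shown to differ from that in the lower. Of the 9 genes 6 had an unadjusted p under 0.05, Mup3, Mup20 and also Mup1, Mup2, Mup10 and Mup17, but these last 4 were at or near 0 at both stages in the upper range, where no change of theirs could be seen.

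Mup20 in the upper range was at 32.52, 51.24, 41.68 and 41.52 TPM in NUL_220, NUL_221, NUL_226 and NUL_227 and at 71.10, 62.34 and 73.33 TPM in LAC_200, LAC_213 and LAC_240. The groups did not overlap, and the log2 difference was 0.72 ± 0.22 (limma adjusted p = 0.052). In the lower range the values overlapped, at 22.35 to 33.77 TPM in nulliparous and 25.31 to 35.28 TPM in lactating mice (0.12 ± 0.24, adjusted p = 0.799).

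**Figure D4:**
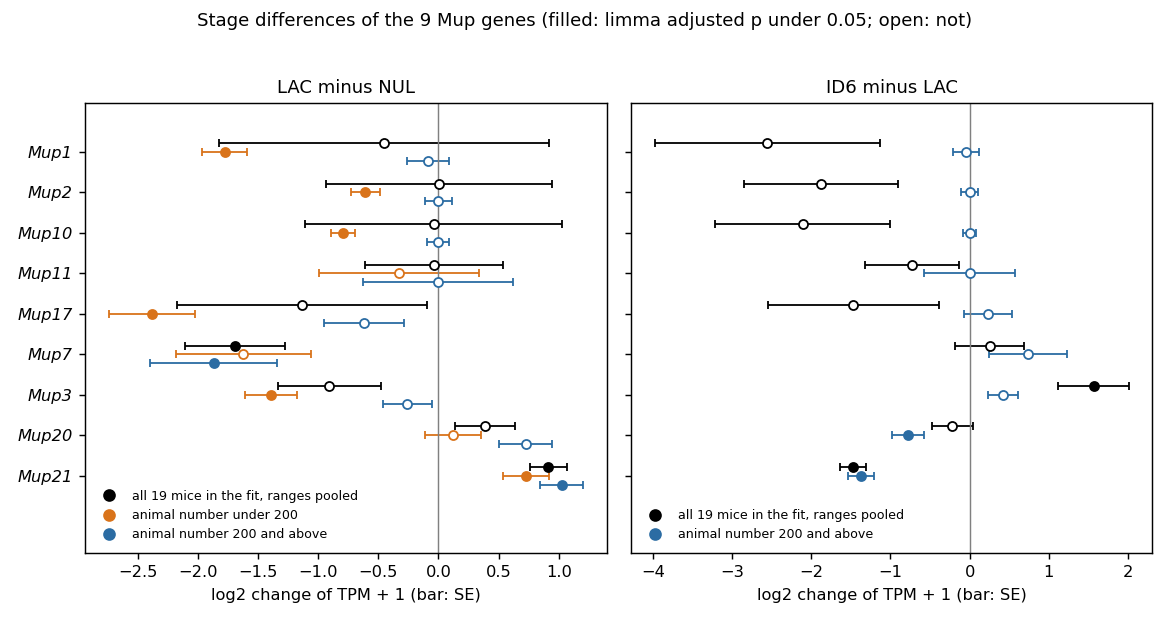
Log2 change of TPM + 1 with its SE (horizontal axes) for the 9 Mup genes (vertical axis), for LAC minus NUL in the left panel and ID6 minus LAC in the right, in black with ranges pooled, orange for animal numbers under 200 and blue for 200 and above, filled where the limma adjusted p was under 0.05. Mup21 is up at lactation and down at involution in every estimate, and the orange points of Mup1, Mup2, Mup10, Mup17 and Mup3 lie below 0 at lactation.

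The third comparison followed the genes from lactation to involution. With ranges pooled, Mup3 was called higher and Mup21 lower in ID6 than in LAC, 2 of the 9 genes against 1.93% of all genes. Mup3 was at 5192 to 8530 TPM in the 6 involution mice (median 6604), a log2 change of 1.57 ± 0.44 (limma adjusted p = 0.0161) that set these mice, all from the upper range, against lactating mice of both ranges. Against the 3 lactating mice of the upper range the change was 0.43 ± 0.19 (adjusted p = 0.145) with overlapping values. The pooled differences of Mup1, Mup2, Mup10, Mup11 and Mup17 lay between -2.56 and -0.72, and within the upper range between -0.05 and 0.23.

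Mup21 was at 1.24 to 1.71 TPM in involution mice (median 1.36), below every lactating mouse, and fell by 1.47 ± 0.16 on the log2 scale (limma adjusted p = 6.49e-06), or by 1.37 ± 0.17 within the upper range (adjusted p = 3.42e-05), to 0.262 of the lactating mean there. Mup20 fell within the upper range from 68.9 ± 5.81 TPM (SD, n = 3) at lactation to 41.1 ± 11.5 TPM (n = 6) at involution, without overlap (log2 change -0.78 ± 0.20, adjusted p = 0.0141). Mup20 and Mup21 were the genes of the 9 that passed the test in that range, against 15.3% of all genes. With ranges pooled the change of Mup20 was -0.22 ± 0.26 (adjusted p = 0.584). Mup7 differed by 0.74 ± 0.49 within the upper range (adjusted p = 0.346).

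Against nulliparous mice, none of the 9 genes was called at involution with ranges pooled, where 0.253% of all genes were, although 4 of them had an unadjusted p under 0.05 by limma and 4 a p under 0.05 by the exact permutation test. By limma 1 passed the adjusted p alone, against 4.36% of all genes, Mup21 (log2 change -0.56 ± 0.15, adjusted p = 0.0463), and Mup7 was at 0.0543 (-1.44 ± 0.42). Within the upper range none passed, with 1.24% of all genes passing, and 2 of the 9 (Mup7 and Mup21) had an unadjusted p under 0.05, as did 1 (Mup21) by the exact permutation test. There Mup3 differed by 0.17 ± 0.17 (adjusted p = 0.771), Mup20 by -0.05 ± 0.19 (adjusted p = 0.954) and Mup21 by -0.34 ± 0.15 (adjusted p = 0.345). The sum of the 9 genes was 6832 ± 1112 TPM in involution mice (SD, n = 6), 1.11 times the nulliparous mean and 1.32 times the lactating mean of the same range. With ranges pooled the sum was 4809 ± 2021 TPM in nulliparous (n = 7) and 3164 ± 2366 TPM in lactating mice (n = 6), and the involution mean was 1.42 and 2.16 times these, but for the 8 genes without Mup3 it was 0.303 and 0.465 times.

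Among the 22 regulators at lactation, Ghr, the growth hormone receptor, fell by 0.40 ± 0.08 on the log2 scale (limma adjusted p = 0.00307). Stat5a fell by 0.55 ± 0.10 (adjusted p = 0.00208) and Stat5b, the transcription factor that carries the growth hormone signal in liver, by 0.43 ± 0.09 (adjusted p = 0.00506). Ghr, Stat5a and Stat5b also fell at an adjusted p under 0.05 within each range. Igf1 fell with ranges pooled and passed within neither range, and Thrsp, a thyroid hormone responsive gene of lipid synthesis, rose by 1.88 ± 0.25 (adjusted p = 0.000163). Thrsp also rose within each range at an adjusted p under 0.05. Within the lower range, but not the upper, Onecut1 and Zhx2 rose as well. From lactation to involution Ghr, Stat5a, Stat5b, Jak2, Prlr and Nr3c1 rose and Thrsp fell, in a comparison in which 22.8% of all genes passed. Within the upper range Ghr, Nr3c1, Stat5a and Stat5b rose and Thrsp fell, while Jak2 (0.16 ± 0.08, limma adjusted p = 0.195) and Prlr (0.27 ± 0.11, adjusted p = 0.114) did not pass. None of the 22 passed against nulliparous mice by limma at involution, with 4 at an unadjusted p under 0.05. Kupffer cell and leukocyte markers moved with stage and with range. Their summed TPM (5 genes, none at 0 in all mice) was 90.77 to 180.1 in NUL, 64.27 to 131.8 in LAC and 184.2 to 252.1 in ID6, with 4 of 5 lower at lactation, all 5 higher at involution than at lactation (4 of 5 within the upper range) and 3 of 5 higher in the upper range. Over all genes 9.21% passed at lactation, 22.8% from lactation to involution, 15.3% in that comparison within the upper range, and 25.6% between the ranges. The part of these markers in the Mup results was not tested.

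The genes outside the family whose log2(TPM + 1) followed the log2 sum of the 9 genes most closely over the 19 mice, among 11566 genes whose mean reached 1 TPM, were Enho (r = 0.942), Ttr (0.941), Fam25c (0.940), Capn3 (0.929) and 2700060E02Rik (0.927). With the mean of each stage and range taken off, the highest were Gm45724 (0.792), Zfp157 (0.787), Tmem216 (0.781), Abtb1 (0.778) and Arl16 (0.773), so that no gene was in both lists. Among Mup3, Mup7, Mup20 and Mup21 the correlations left after the same step lay between -0.246 and 0.214. These correlations are descriptions over mice that share stage, range and the closed total of TPM.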

How the data were processed

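Liver RNA of 19 mice was sequenced by the authors (paired-end, NovaSeq), aligned to GRCm38 and quantified per gene with RSEM 1.3.1 (per the submitters' processing notes) on an Ensembl annotation, and they deposited TPM values, 1 for each gene and mouse, over 51826 entries. The aligner is not given in the sources used here. Reads that match more than 1 gene are shared out by RSEM's model. TPM keep no depth, which is unknown here, so no counting interval or detection floor is given. The totals were 999999 to 1000001 TPM, and 0 of 171 pairs of mice had identical values. DESeq2, used by the authors on counts, was not run, because TPM are not counts.

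Of 26140 genes above 0 in at least 1 mouse, 16230 reached a mean of 0.1 TPM and were tested with limma-trend (limma 3.58.1, R 4.3.3) on log2(TPM + 1), with Benjamini-Hochberg adjustment over all of them. Stages were compared with all 19 mice in the fit. The range of animal number was compared in the 13 NUL and LAC mice with stage in the fit, its interaction with stage in the same mice, and each stage within a range from a fit with a mean for each stage and range, added after the data were seen. Lists of regulators, Zhx2-sensitive genes, sex-biased genes, lipocalins and cell markers were described by counts. The values of 1 listed gene are not reported here. The 9 genes, the ranges and the lists were chosen with earlier results of these data known. Named genes are the 9 genes, the rest of the family, the listed genes, neighbours of the cluster, and the 5 genes most like the sum. Positions and transcripts are from GENCODE M21 (GRCm38) and promoters from RefSeq. The analysis was tested on simulated data. Python 3.11.15, numpy 2.4.6, pandas 2.3.3, scipy 1.17.1 and Biopython 1.88 were used. Alternatives were 0.1 or 0.5 as pseudocount, a stricter filter (1 TPM) and no filter, median-ratio scaling, rescaling without the Mup genes, robust moderation, only the groups compared, range of animal number as a covariate, the upper range alone, exact permutation and each mouse left out.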

Additional observations from a re-analysis of the deposited data

Results flagged for a closer look

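In 27 groups of 6 or 7 mice the distance of the highest or lowest mouse from the others was examined. For normal values chance passes this check in about 1 of 20 groups. The NUL and LAC groups mix the ranges and several groups hold ties at 0, so that rate does not hold for them. The groups were the 9 genes and their sum in 3 stages, without Mup2, Mup10 and Mup11 in ID6, where every mouse was listed at 0. Mup11 in NUL_1 stood at 13.81 TPM, with 0.88 TPM in the next mouse, a gap that made up 0.936 of the spread from lowest to highest. In LAC_36 Mup11 stood at 8.37 TPM, with 0.59 TPM in the next, and the gap made up 0.929 of the spread. Both mice carry numbers under 200, and with 35.2% of its windows unique, the level of Mup11 depends on how reads were divided. Mup1 in ID6_230 was at 0.03 TPM with the other 5 mice listed at 0, where any value above 0 would have been flagged.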

How the results depend on the processing

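No paired analysis was possible because animal numbers are not shared between stages. Called counts changed as follows. For LAC against NUL, 2 genes in place of 1 were called with pseudocounts of 0.1 and 0.5 (Mup7 and Mup21) and with range as a covariate (Mup7 and Mup17). At the adjusted p alone 2 passed, and from the 5 means 2 were called within the upper range and 3 within the lower. In the fit of only mice numbered 200 and above Mup7 was not called (-1.87, limma adjusted p = 0.071). With range as a covariate Mup1 (-0.87, limma adjusted p = 0.0158), Mup3 (-0.79, 0.0107) and Mup10 (-0.37, 0.0321) also passed the adjusted p, short of the threshold on the fold. For ID6 against LAC, 1 gene in place of 2 was called with range as a covariate, with only mice numbered 200 and above and from the 5 means. For ID6 against NUL, 1 in place of 0 was called with a filter at 1 TPM (Mup7) and at the adjusted p alone (Mup21), and for the interaction 1 in place of 0 with that filter (Mup1). The sum without Mup3 gave 0.465 for ID6 over LAC and 0.303 for ID6 over NUL. Between the ranges 5 to 7 genes passed under every alternative.

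With each mouse left out, 1 to 2 genes were called for LAC against NUL (2 without LAC_200), 0 to 1 for ID6 against NUL (1 without NUL_226, NUL_227, LAC_240 or ID6_209) and 0 to 1 for the interaction (1 without NUL_4). Mup21 in ID6 against NUL lost its adjusted p under 0.05 in 13 of 19 fits, without a filter (0.0821), with only the groups compared (0.0538), with range as a covariate (0.178) and with only mice numbered 200 and above (0.35). Mup11 between the ranges lost its call without a filter (0.0893) and with robust moderation (0.059).

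For LAC minus NUL, Mup2 went from 0.01 to -0.28 with range as a covariate, -0.61 within the lower range and -2.15 TPM by mean TPM, Mup10 to 0.18 and 0.022 and Mup11 to 0.065 with smaller pseudocounts (0.1 and 0.5, and 0.1). For ID6 minus LAC with range as a covariate, Mup1 turned to 0.40, Mup2 to 0.16, Mup10 to 0.21, Mup11 to 0.087 and Mup17 to 0.70, with 0.23 for Mup17 within the upper range by either fit. For ID6 minus NUL, Mup3 turned to -0.057 and Mup20 to -0.17 with range as a covariate, and Mup20 to -0.052 within the upper range by either fit. With mice left out, LAC minus NUL ran from -1.01 to 0.26 for Mup1, -0.42 to 0.46 for Mup2, -0.51 to 0.45 for Mup10 and -0.54 to 0.48 for Mup11, and the interaction from -0.55 to 0.14 for Mup7 and -0.73 to 1.22 for Mup11. The cause was not tested. Exact permutation within a range, with 3 mice against 3, cannot give a p below 0.10.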

Other observations

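Sex-biased liver genes were also followed over the stages, as values only. At lactation 6 of 16 female-biased genes were higher and 1 lower than in nulliparous mice at a limma adjusted p under 0.05, where 9.21% of all genes passed in either direction, and the median of the list was 0.52 on the log2 scale, where all genes had -0.03. Cyp17a1, a steroid hydroxylase, rose by 1.75 ± 0.54 (adjusted p = 0.0491) and Cyp2a4, Cyp3a41a, Cyp3a41b and Ttc39c were among the others that rose (the near-identical Cyp3a41a and Cyp3a41b may share reads), while Cyp2b13 fell by 1.67 ± 0.31 (adjusted p = 0.00193). Within the lower range 5 were higher and 2 lower at that threshold, where 5.27% of all genes were lower. The share of all genes that were higher there is not given, so the 5 cannot be set beside it. Within the upper range 2 were called higher and 1 lower, where 1.09% of all genes were called in either direction. Of 14 male-biased genes, Serpina1e rose by 1.38 ± 0.18 (limma adjusted p = 0.000142) and C6, Cyp2d9 and Nudt7 fell, with a median of -0.21. From lactation to involution C6, Cspg5, Cyp2u1 and Nudt7 rose and Serpina1e fell by 1.46 ± 0.19 (limma adjusted p = 3.18e-05), and of the female-biased genes Prom1 rose and Acot3, Cyp17a1, Cyp3a41a and Ttc39c fell. Within the upper range C6 and Cyp2u1 rose and Serpina1e fell by 1.06 ± 0.11 (adjusted p = 1.37e-05), and Cyp2b13 rose and Cyp17a1 and Ttc39c fell. Over all genes 22.8% passed from lactation to involution with ranges pooled and 15.3% within the upper range.

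Cholangiocyte, stellate cell and endothelial markers (10 genes) held 1 gene that passed at an adjusted p under 0.05 in the 3 stage comparisons and the comparison of ranges, Pecam1, which rose from lactation to involution by 0.59 ± 0.11 on the log2 scale (limma adjusted p = 0.00105). At lactation none of the 9 other lipocalins passed by limma with ranges pooled, with 3 at an unadjusted p under 0.05. Within the lower range Orm3 was higher at lactation at a limma adjusted p under 0.05. C8g and Ptgds were lower there, where 5.27% of all genes were lower. Within the upper range Lcn2 was called lower, where 1.09% of all genes were called in either direction. From lactation to involution Ambp and Orm2 rose and Apom fell with ranges pooled. Within the upper range 6 of the 9 rose at involution (Ambp, C8g, Lcn2, Orm2, Orm3 and Ptgds) and none fell, with Apom not passing. Over all genes 9.21% passed at lactation, 22.8% from lactation to involution and 15.3% in the latter comparison within the upper range. At involution against nulliparous mice 4.36% of all genes passed, and between the ranges 25.6%.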
